A study of Mus musculus with 12 samples.

Results

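Livers of CD-1 mice taken 24 h after 1 intraperitoneal injection of thioacetamide (TAA) were compared with control livers of the same stock across all genes of a raw count table, with 2 libraries in each group. Of 41128 genes in that table, 13456 passed the filter on low counts and were compared, after 41 tested genes of pancreatic acinar cells were set aside. All labels give an age of 8 weeks, and no genotype other than the stock. Neither the dose of TAA nor what the controls received is stated in the sources used here. The series design calls these libraries livers, whereas the sample labels call them hepatocytes of liver purified on a Percoll gradient. The whole series holds 12 libraries, among them 2 taken 48 h after TAA that enter the same model and 6 of hepatocytes from another line, and the title speaks of YAP and TAZ, a pair of coactivators held in check by the Hippo kinases. Whether the 2 libraries of a group are from different mice is not labelled. The p-values therefore cover the spread between libraries, which may be technical.

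TAA is a liver toxin that becomes harmful once it is oxidised inside hepatocytes, mainly by the cytochrome P450 Cyp2e1 and by flavin monooxygenases. Cyp2e1 is made by hepatocytes around the central vein, so the injury of a single dose is known as centrilobular necrosis. Surviving hepatocytes are known to answer such a loss with stress and acute phase genes and then to re-enter the cell cycle, while macrophages and stellate cells clear and rebuild the damaged zone.

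Below, values of a gene are counts-per-million values (CPM) scaled by TMM factors, given for replicate 1 and then replicate 2 of each group. Fold changes are log2 values of 24 h over control. The value after ± is an approximate standard error, the absolute log2 fold change divided by the square root of the F statistic. Adjusted p-values are those of edgeR (quasi-likelihood F test), adjusted over all genes tested by Benjamini and Hochberg. A gene "rose" or "fell" where this adjusted p was under 0.05. At that threshold 2876 genes (21.4%) rose and 2739 (20.4%) fell, and the median over all genes was 0.024. Of these, 2001 and 1344 moved at least 2-fold, and 482 and 134 at least 8-fold. In every one of the 5615 called genes (41.7%) the 2 groups did not overlap, but 74.1% of all genes tested showed no overlap, which is the background of that count with 2 libraries a group. Without 24 h replicate 1 the counts were 1442 and 1378, and without control replicate 2 they were 2021 and 2348.

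The split depends on the scaling. TMM factors were 0.757 and 0.750 in the controls and 1.09 and 1.06 at 24 h, and with library totals in their place 6126 genes were higher and 1199 lower, with 83.6% of calls higher against 51.2% here. The median of all genes then lay at 0.54, a shift of 0.51, and all changes here are relative to the TMM scale. Total counts ran from 12522853 to 13692235. In RPM, which is CPM without the TMM factors, 3 counts correspond to 0.219 to 0.240. Albumin (Alb), the main plasma protein, took 154335 and 151663 RPM in the controls and 104943 and 117892 RPM at 24 h. In a fit of all 12 libraries, 38 of the 144 genes of the naming rule lost their call. Summed acinar transcripts stood at 9843 and 553 RPM in the controls and 194 and 181 RPM at 24 h. The 48 h libraries, which enter the same fit, held 5132 and 20169 RPM of them. The female transcript Xist stood at 196 to 327 RPM in the 4 libraries.

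**Figure D1:**
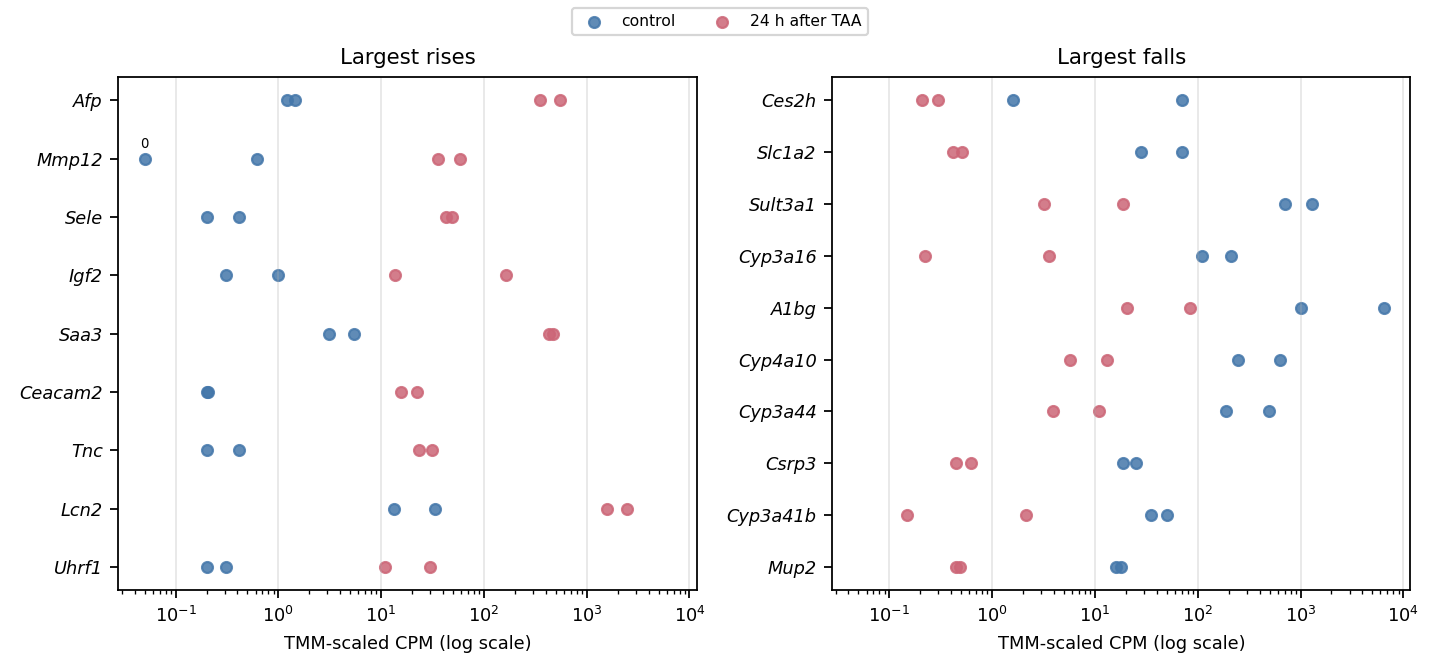
Each point is 1 library, with TMM-scaled CPM on a log axis and genes in order of their log2 fold change, for the largest rises (left) and falls (right) reported by the naming rule. A library with no count, control replicate 2 of Mmp12, is drawn at the left edge and marked 0. The naming rule asks for no overlap between the groups, so both 24 h libraries lie on one side of both controls by selection. Replicates of Ces2h, Igf2 and Cyp3a16 lie far apart.

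Among called genes with at least 4 counts over the controls and the other limits of the naming rule, the largest reported rises by ratio were in genes of different kinds. They were led by a fetal plasma protein, a protease and an adhesion protein. Afp, the albumin relative of fetal liver, stood at 1.44 and 1.20 CPM in the controls against 551 and 355 CPM at 24 h. Its log2 fold change was 8.41 ± 0.54 (adjusted p = 0.000369), the largest reported under these limits. Sult1e1, described below, rose by more but had 1 count over both controls. The Afp gene, which is protein-coding, lies at chr5:90490737-90508907 (plus strand, GRCm38). Mmp12, a macrophage elastase, had 0.619 and 0 CPM in the controls and 59.1 and 36.0 CPM at 24 h, a change of 7.23 ± 0.77 (adjusted p = 0.000998). Sele, the E-selectin of activated endothelium, was at 0.413 and 0.200 CPM in the controls against 49.4 and 42.5 CPM at 24 h, a change of 7.19 ± 0.44 (adjusted p = 0.000350). No overlap between the groups was a condition of naming these 3 genes, and both 24 h libraries lay far above both controls. Lcn2, a siderophore-binding acute phase protein, stood at 33.5 and 13.2 CPM in the controls and 1561 and 2442 CPM at 24 h (6.42 ± 0.53, adjusted p = 0.000602). The matrix glycoprotein gene Tnc changed by 6.43 ± 0.35 (adjusted p = 0.000312) and the adhesion gene Ceacam2 by 6.48 ± 1.47 (adjusted p = 0.0133), each from a few counts in the controls. Igf2, a fetal growth factor, had 0.309 and 1.00 CPM in the controls against 162 and 13.8 CPM at 24 h, so its libraries at 24 h differed widely, and 64.5% of its exon length is shared with another gene. Mmp12 had a log2 fold change of 6.23 without control replicate 2. Without control replicate 1, Mmp12 had no control count left. Lcn2 had a log2 fold change of 7.23 without control replicate 1. The call on Ceacam2 was lost without control replicate 1 or control replicate 2 (adjusted p = 0.0794 to 0.0824). The call on Igf2 was lost without control replicate 1 (adjusted p = 0.0597) and in a robust fit (adjusted p = 0.0571). Igf2 had a log2 fold change of 4.37 without 24 h replicate 1, 7.91 without 24 h replicate 2, 6.43 without control replicate 1 and 8.10 without control replicate 2.

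By CPM rather than by ratio, the largest rises among called genes were in plasma proteins of the acute phase. Hpx, the haem-binding hemopexin, was at 4220.4 and 4579 CPM in the controls and 8659 and 7591 CPM at 24 h (0.88 ± 0.27, adjusted p = 0.0393), and Hp, the haemoglobin-binding haptoglobin, at 2572 and 2571 CPM in the controls against 5561 and 5144 CPM at 24 h (1.06 ± 0.23, adjusted p = 0.0124). Saa1 and Saa2, the serum amyloid A proteins, stood at 49.3 and 214 CPM in the controls and 1519 and 1606 CPM at 24 h and at 23.8 and 96.0 CPM in the controls against 1506 and 1658 CPM at 24 h, with changes of 3.57 ± 0.63 (adjusted p = 0.00567) and 4.72 ± 0.63 (adjusted p = 0.00212). These 2 genes are near-identical copies, so reads may be split between them. The call on Hpx was lost without 24 h replicate 1, control replicate 1 or control replicate 2 (adjusted p = 0.0939 to 0.170). The call on Hp was lost without control replicate 1 or control replicate 2 (adjusted p = 0.0640 to 0.0762). Saa1 had a log2 fold change of 2.86 without control replicate 1 and 4.97 without control replicate 2. Saa2 had a log2 fold change of 4.03 without control replicate 1 and 6.04 without control replicate 2.

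Under the same limits, the largest falls by ratio were also in genes of different kinds, among them an esterase, a glutamate transporter, a sulphotransferase and several P450 enzymes. Of these P450 genes, Cyp3a16, Cyp3a41b and Cyp3a44 are given below with the female-biased liver genes, a list in which every tested member fell. Sult3a1, a sulphotransferase, had 1294 and 705 CPM in the controls and 3.16 and 18.6 CPM at 24 h, a change of -6.51 ± 0.88 (adjusted p = 0.00216). Slc1a2, the glutamate transporter of pericentral hepatocytes, was at 27.9 and 69.6 CPM in the controls against 0.514 and 0.413 CPM at 24 h (-6.69 ± 0.62, adjusted p = 0.000717). Cyp4a10, a fatty acid hydroxylase, stood at 632 and 249 CPM in the controls and 5.73 and 13 CPM at 24 h (-5.55 ± 0.65, adjusted p = 0.00138). The plasma glycoprotein gene A1bg stood at 6519 and 1010.5 CPM in the controls against 20.6 and 83.9 CPM at 24 h (-6.17 ± 1.20, adjusted p = 0.00816), and the carboxylesterase gene Ces2h at 69.6 and 1.60 CPM in the controls and 0.294 and 0.206 CPM at 24 h (-7.10 ± 1.79, adjusted p = 0.0203), so the controls themselves lay far apart. Mup2, a major urinary protein, changed by -5.18 ± 0.33 (adjusted p = 0.000369) and the muscle LIM protein gene Csrp3 by -5.35 ± 0.76 (adjusted p = 0.00263). Members of the Cyp3a and Mup families share sequence, and their reads may be split. Sult3a1 had a log2 fold change of -5.74 without 24 h replicate 1 and -8.31 without 24 h replicate 2. Slc1a2 had a log2 fold change of -5.90 without control replicate 2. Cyp4a10 had a log2 fold change of -6.27 without 24 h replicate 2 and -4.74 without control replicate 1. The call on A1bg was lost without 24 h replicate 1 (adjusted p = 0.0544). A1bg had a log2 fold change of -5.48 without 24 h replicate 1, -7.52 without 24 h replicate 2, -4.28 without control replicate 1 and -6.97 without control replicate 2. The call on Ces2h was lost without 24 h replicate 1 or 24 h replicate 2 (adjusted p = 0.108 to 0.119) and in a robust fit (adjusted p = 0.0909). Ces2h had a log2 fold change of -2.65 without control replicate 1 and -8.09 without control replicate 2.

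By CPM the largest falls among called genes were in lipoprotein, carrier and P450 genes. Apoe, an apolipoprotein, was at 18523 and 17982 CPM in the controls against 6719 and 7599 CPM at 24 h (-1.35 ± 0.35, adjusted p = 0.0221). Apoa2, a protein of high-density lipoprotein, stood at 7724 and 6624 CPM in the controls and 1631 and 1919 CPM at 24 h (-2.01 ± 0.24, adjusted p = 0.00143), and Gc, the vitamin D carrier, at 11912 and 11462 CPM in the controls against 5899.7 and 5895 CPM at 24 h (-0.99 ± 0.29, adjusted p = 0.0358). Cyp3a11, the main drug-oxidising P450 of mouse liver, had 6359.6 and 9986 CPM in the controls and 1368 and 1329 CPM at 24 h (-2.60 ± 0.48, adjusted p = 0.00676). The call on Apoe was lost without 24 h replicate 1, control replicate 1 or control replicate 2 (adjusted p = 0.0681 to 0.0800) and with library totals (adjusted p = 0.0540). The call on Gc was lost without any 1 of the 4 libraries (adjusted p = 0.0734 to 0.113) and with library totals (adjusted p = 0.171). The call on Cyp3a11 was lost without 24 h replicate 1 (adjusted p = 0.0508).

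**Figure D2:**
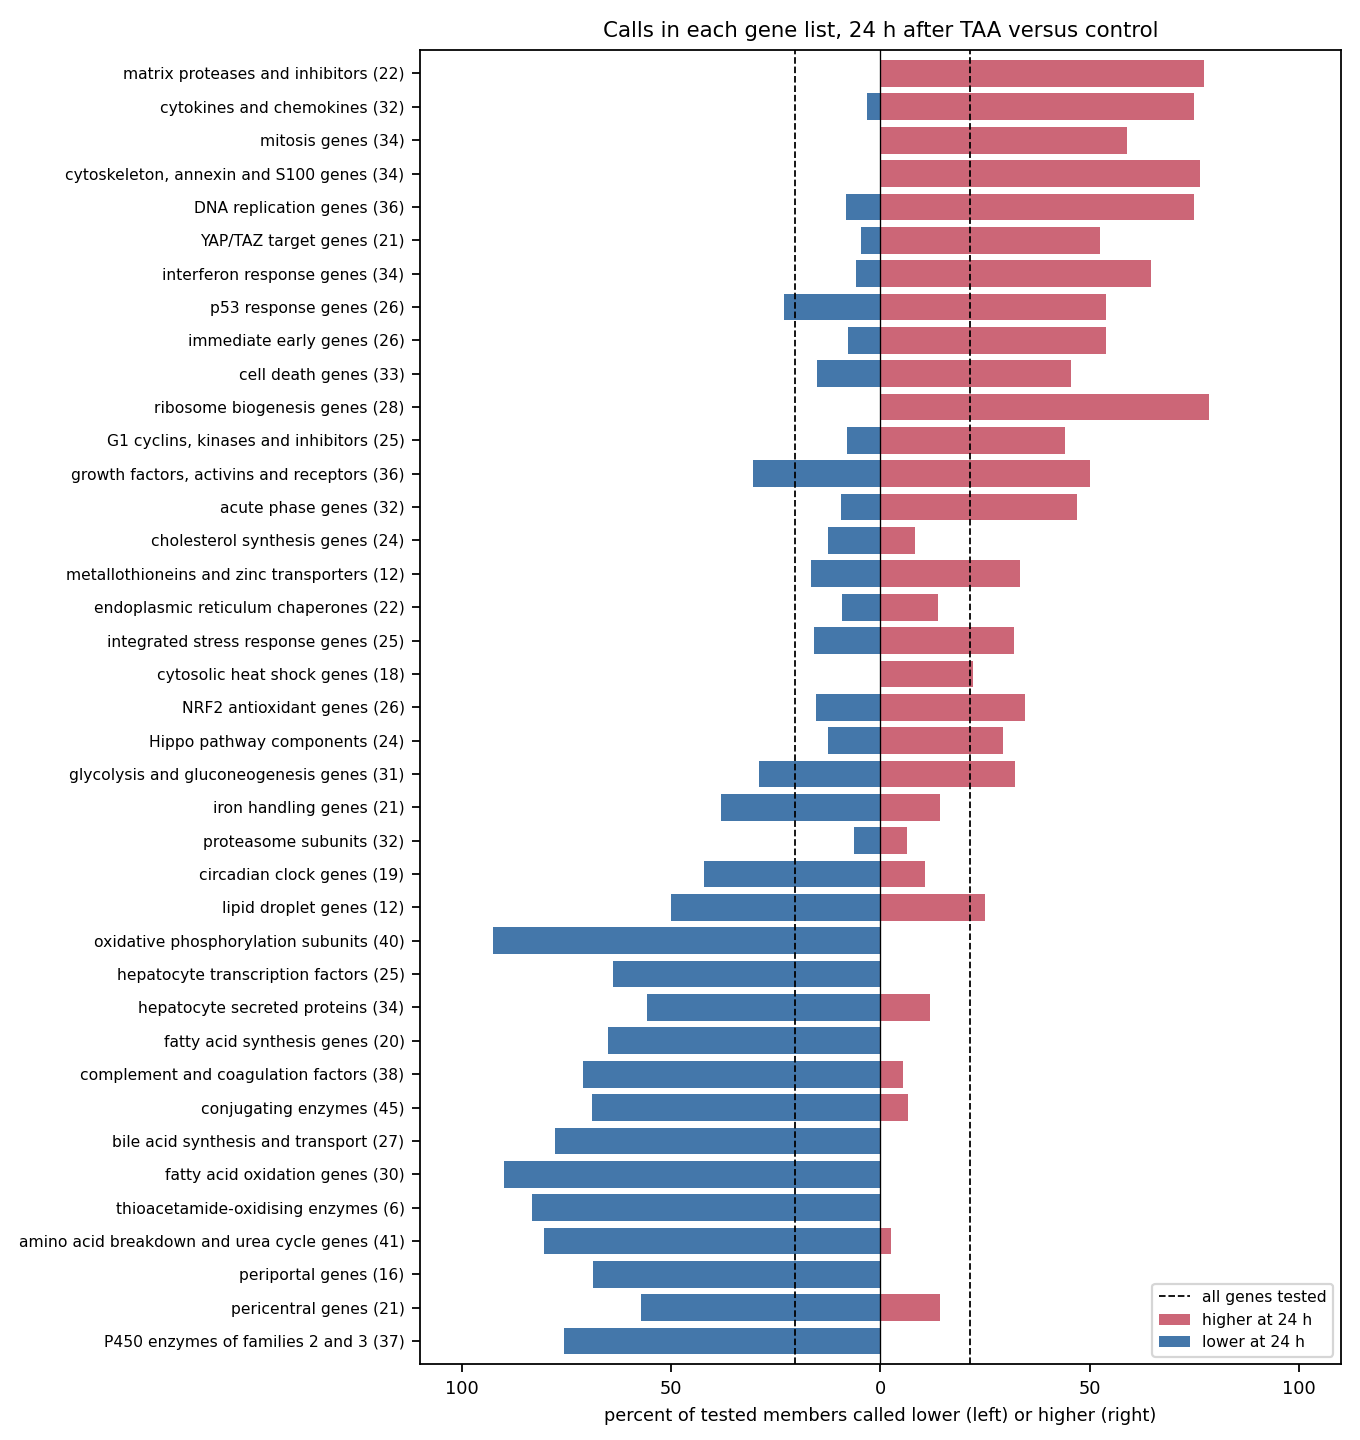
For each gene list (number tested in parentheses), bars give the percent of tested members called higher (right) or lower (left) at 24 h, ordered by the list's median log2 fold change, and dashed lines mark 21.4% and 20.4% of all genes tested. Matrix protease and cytokine lists lie at the top, and P450, pericentral and periportal lists at the bottom.

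The enzymes that oxidise TAA were lower at 24 h. Cyp2e1 was at 4219 and 6474 CPM in the controls against 210.3 and 250.2 CPM at 24 h, a change of -4.54 ± 0.30 (adjusted p = 0.000393), and the gene, which is protein-coding, lies at chr7:140763739-140774987 (plus strand, GRCm38). Both 24 h libraries lay far below both controls. Of 6 TAA-oxidising enzymes tested, 5 fell and 1 did not pass, with a median of -1.38. TAA-oxidising enzymes that fell numbered 3 without 24 h replicate 1 and 3 with all 12 libraries in the fit. Fmo1, a flavin monooxygenase, stood at 555 and 519.5 CPM in the controls and 166 and 167 CPM at 24 h (-1.69 ± 0.14, adjusted p = 0.000602), and its relatives Fmo5 and Fmo2 fell by 1.07 and 0.68 on the log2 scale, while Fmo4 had a log2 fold change of -0.19 (adjusted p = 0.465).

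Transcripts of both zones of the liver lobule were lower. Pericentral genes are those of hepatocytes around the central vein, where Wnt signals act, and periportal genes those at the other end of the sinusoid. Of 21 pericentral genes tested, 3 rose, 12 fell and 6 did not pass, with a median of -1.90. Pericentral genes that rose numbered 1 without control replicate 2 and 1 with all 12 libraries in the fit. Cyp2c50, a pericentral P450, stood at 415 and 647 CPM in the controls against 32.1 and 25.7 CPM at 24 h (-4.20 ± 0.35, adjusted p = 0.000603) and Rgn, a calcium-binding lactonase, at 1474 and 1334 CPM in the controls and 414 and 339 CPM at 24 h (-1.90 ± 0.16, adjusted p = 0.000609). Glul, the glutamine synthetase of the innermost pericentral cells, changed by -2.76, Oat, an ornithine aminotransferase, by -2.65, and the Wnt target Axin2 by -1.68. The Wnt receptor gene Lgr5 had a log2 fold change of -1.09 and did not pass (adjusted p = 0.104). Against the list's direction, Lgals1, a galectin that stromal cells also make, was at 3.51 and 1.50 CPM in the controls against 27.2 and 22.3 CPM at 24 h (3.30 ± 0.34, adjusted p = 0.000975), and the other two members that rose were Cyp2a5 and Lect2. Lgals1 had a log2 fold change of 4.02 without control replicate 1. Of 16 periportal genes tested, 11 fell and 5 did not pass, with a median of -1.74. Periportal genes that fell numbered 4 with all 12 libraries in the fit. Library totals gave 2 members called higher. Pigr, the immunoglobulin transporter, stood at 3481 and 3233 CPM in the controls and 693 and 645 CPM at 24 h (-2.33 ± 0.17, adjusted p = 0.000487). Asl, a urea cycle enzyme, had 621 and 616 CPM in the controls against 113 and 149.9 CPM at 24 h (-2.24 ± 0.17, adjusted p = 0.000575). The 2 medians lay close to each other, at -1.90 and -1.74, and their difference was not tested. Because these are bulk libraries, fewer cells of a type and less RNA per cell cannot be told apart.

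Drug-metabolising genes were lower as well. P450 enzymes oxidise drugs and steroids, and the conjugating enzymes link glucuronate, sulphate or glutathione to the products. Of 37 P450 enzymes of families 2 and 3 tested, 28 fell and 9 did not pass, with a median of -2.06. P450 enzymes of families 2 and 3 that fell numbered 11 with all 12 libraries in the fit. With library totals, 1 was called higher. Cyp2c38 was at 189 and 268 CPM in the controls and 8.60 and 7.98 CPM at 24 h (-4.78 ± 0.21, adjusted p = 0.000211) and Cyp2b9 at 1000.4 and 819.6 CPM in the controls against 163 and 203 CPM at 24 h (-2.31 ± 0.17, adjusted p = 0.000507). Of 45 conjugating enzymes tested, 3 rose, 31 fell and 11 did not pass, with a median of -1.16. Conjugating enzymes that rose numbered 5 with library totals, and those that fell numbered 16 with all 12 libraries in the fit. Ugt3a2, a glycosyltransferase, stood at 645 and 549 CPM in the controls and 89.0 and 96.7 CPM at 24 h (-2.68 ± 0.14, adjusted p = 0.000278). Against the list's direction, Sult1e1, the oestrogen sulphotransferase, had 1 count over both controls and 125 and 124 CPM at 24 h. The ratio of 24 h to control was 2451 (95% interval 440 to 96835, for counting error only), and its adjusted p was 0.000211.

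Genes of bile acid handling were lower. Of 27 bile acid synthesis and transport genes tested, 21 fell and 6 did not pass, with a median of -1.29. With library totals, 3 were called higher. Abcb11, the pump that exports bile salts, had 798 and 754 CPM in the controls against 136 and 150.0 CPM at 24 h (-2.44 ± 0.14, adjusted p = 0.000312). Baat, which links bile acids to taurine, was at 322 and 349 CPM in the controls and 79.3 and 82.9 CPM at 24 h (-2.05 ± 0.12, adjusted p = 0.000312). Cyp7a1, the rate-limiting enzyme of bile acid synthesis, had a log2 fold change of -1.11 and did not pass (adjusted p = 0.141).

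Genes of mitochondrial fuel use were lower. Of 30 fatty acid oxidation genes tested, 27 fell and 3 did not pass, with a median of -1.38. Hadh, a dehydrogenase of beta-oxidation, stood at 483 and 431 CPM in the controls against 129 and 154 CPM at 24 h (-1.69 ± 0.14, adjusted p = 0.000602) and Acads, the short-chain acyl-CoA dehydrogenase, at 199 and 185 CPM in the controls and 70.0 and 75.3 CPM at 24 h (-1.40 ± 0.11, adjusted p = 0.000584). Of 40 oxidative phosphorylation subunits tested, 37 fell and 3 did not pass, with a median of -0.64. Oxidative phosphorylation subunits that fell numbered 21 without 24 h replicate 1, 4 with library totals and 6 with all 12 libraries in the fit. With library totals, 1 was called higher. Sdhb, a subunit of complex II, stood at 230.4 and 212 CPM in the controls against 91.3 and 97.6 CPM at 24 h (-1.23 ± 0.11, adjusted p = 0.000676) and Ndufs7, a subunit of complex I, at 63.0 and 55.5 CPM in the controls and 17.4 and 20.2 CPM at 24 h (-1.66 ± 0.15, adjusted p = 0.000665). Transcripts of the mitochondrial genome took 34420 and 41622 RPM in the controls and 31150 and 36013 RPM at 24 h, and these ranges overlapped in RPM. RPM leave out the TMM factors under which the subunits were called, so these results are not on one scale. Those factors would raise the controls relative to 24 h.

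Amino acid breakdown and the urea cycle were lower. Of 41 amino acid breakdown and urea cycle genes tested, 1 rose, 33 fell and 7 did not pass, with a median of -1.66. Otc, the urea cycle enzyme that joins ornithine and carbamoyl phosphate, was at 699.9 and 714 CPM in the controls against 91.9 and 126 CPM at 24 h (-2.70 ± 0.17, adjusted p = 0.000369). Afmid, a formamidase of tryptophan breakdown, stood at 56.4 and 46.8 CPM in the controls and 4.41 and 6.05 CPM at 24 h (-3.30 ± 0.25, adjusted p = 0.000499), with 46.6% of its exon length shared with another gene. The member that rose was Acmsd, also of tryptophan breakdown, at 27.4 and 43.5 CPM in the controls against 146 and 149 CPM at 24 h (2.05 ± 0.44, adjusted p = 0.0118). The call on Acmsd was lost without 24 h replicate 1 or control replicate 1 (adjusted p = 0.0552 to 0.0582).

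Lipid synthesis lists moved unequally. Of 20 fatty acid synthesis genes tested, 13 fell and 7 did not pass, with a median of -0.94. Fatty acid synthesis genes that fell numbered 5 with all 12 libraries in the fit. With library totals, 1 was called higher. Acacb, the mitochondrial acetyl-CoA carboxylase, stood at 101 and 106 CPM in the controls and 24.2 and 26.7 CPM at 24 h (-2.03 ± 0.12, adjusted p = 0.000346), and Elovl5, a fatty acid elongase, at 844 and 979.8 CPM in the controls against 209 and 263 CPM at 24 h (-1.95 ± 0.17, adjusted p = 0.000623). Of 24 cholesterol synthesis genes tested, 2 rose, 3 fell and 19 did not pass, with a median of 0.45. Cholesterol synthesis genes that rose numbered 0 without 24 h replicate 1, 1 without 24 h replicate 2, 8 without control replicate 1, 0 without control replicate 2, 13 with library totals and 0 with all 12 libraries in the fit, and those that fell numbered 0 with all 12 libraries in the fit. Ebp and Tm7sf2, 2 enzymes late in the pathway, changed by -0.88 ± 0.11 (adjusted p = 0.00194) and -1.28 ± 0.16 (adjusted p = 0.00153). Of 12 lipid droplet genes tested, 3 rose, 6 fell and 3 did not pass, with a median of -0.53. Lipid droplet genes that rose numbered 5 with library totals, and those that fell numbered 1 without 24 h replicate 1, 3 without 24 h replicate 2, 2 without control replicate 2, 2 with library totals and 1 with all 12 libraries in the fit. Cideb, a droplet fusion protein of hepatocytes, changed by -1.33 ± 0.13 (adjusted p = 0.000755), with 76.3% of its exon length shared with another gene. Hilpda, an inhibitor of fat breakdown, was at 2.99 and 3.31 CPM in the controls and 14.0 and 14.7 CPM at 24 h (2.18 ± 0.17, adjusted p = 0.000543). 

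Carbohydrate genes moved both ways. Of 31 glycolysis and gluconeogenesis genes tested, 10 rose, 9 fell and 12 did not pass, with a median of 0.11. Glycolysis and gluconeogenesis genes that rose numbered 18 with library totals, and those that fell numbered 5 with library totals and 1 with all 12 libraries in the fit. Pkm, the pyruvate kinase that adult hepatocytes hardly use, stood at 9.18 and 5.61 CPM in the controls against 78.8 and 64.2 CPM at 24 h (3.27 ± 0.25, adjusted p = 0.000507). Hk3, a hexokinase of myeloid cells, had 1.34 and 1.20 CPM in the controls and 6.39 and 6.67 CPM at 24 h (2.35 ± 0.20, adjusted p = 0.000623). Pcx, the pyruvate carboxylase that feeds gluconeogenesis, was at 954 and 1042 CPM in the controls against 456 and 457 CPM at 24 h (-1.13 ± 0.13, adjusted p = 0.00135).

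Hepatocyte regulators and plasma proteins were mostly lower. Of 25 hepatocyte transcription factors tested, 16 fell and 9 did not pass, with a median of -0.70. Hepatocyte transcription factors that fell numbered 8 without 24 h replicate 1, 5 with library totals and 6 with all 12 libraries in the fit. Library totals gave 2 members called higher. Cebpa, a factor of hepatocyte differentiation, stood at 358 and 344 CPM in the controls and 162 and 167 CPM at 24 h (-1.10 ± 0.11, adjusted p = 0.000875) and Onecut2 at 102 and 107 CPM in the controls against 50.8 and 48.7 CPM at 24 h (-1.06 ± 0.11, adjusted p = 0.000893). Hnf4a, the central regulator of hepatocyte genes, had a log2 fold change of -0.61 and did not pass (adjusted p = 0.0784). Of 34 hepatocyte secreted proteins tested, 4 rose, 19 fell and 11 did not pass, with a median of -0.88. Hepatocyte secreted proteins that rose numbered 7 with library totals, and those that fell numbered 6 with all 12 libraries in the fit. Serpina6, the carrier of glucocorticoids, had 490.0 and 356 CPM in the controls and 15.6 and 13.1 CPM at 24 h (-4.88 ± 0.24, adjusted p = 0.000271). Albumin (Alb) was at 203875 and 202314 CPM in the controls against 96553 and 111033 CPM at 24 h, so its groups did not overlap, yet with a change of -0.97 ± 1.21 it did not pass (adjusted p = 0.549). Of 38 complement and coagulation factors tested, 2 rose, 27 fell and 9 did not pass, with a median of -1.10. Complement and coagulation factors that rose numbered 0 without 24 h replicate 1, 1 without 24 h replicate 2, 0 without control replicate 1, 0 without control replicate 2 and 0 with all 12 libraries in the fit, and those that fell numbered 9 with all 12 libraries in the fit. F13b, a subunit of the fibrin-linking factor XIII, was at 356 and 398 CPM in the controls against 111 and 114 CPM at 24 h (-1.74 ± 0.12, adjusted p = 0.000393), and F7, the coagulation factor VII, at 194 and 159 CPM in the controls and 56.1 and 54.2 CPM at 24 h (-1.68 ± 0.13, adjusted p = 0.000586). Against this direction, C4bp, an inhibitor of complement, stood at 579 and 602 CPM in the controls against 881 and 843 CPM at 24 h (0.55 ± 0.13, adjusted p = 0.0177). The call on C4bp was lost without 24 h replicate 1, control replicate 1 or control replicate 2 (adjusted p = 0.0585 to 0.0729).

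Acute phase genes are those that hepatocytes raise under interleukin-6 and interleukin-1. Of 32 acute phase genes tested, 15 rose, 3 fell and 14 did not pass, with a median of 0.61. Acute phase genes that rose numbered 23 with library totals and 6 with all 12 libraries in the fit, and those that fell numbered 0 without 24 h replicate 1, 1 with library totals and 0 with all 12 libraries in the fit. Saa3, a serum amyloid of liver and macrophages, had 5.47 and 3.11 CPM in the controls and 467 and 431 CPM at 24 h (6.71 ± 0.32, adjusted p = 0.000262). Cd14, the co-receptor for bacterial lipopolysaccharide, was at 4.95 and 4.41 CPM in the controls against 59.6 and 75.0 CPM at 24 h (3.84 ± 0.17, adjusted p = 0.000247). Saa4, the constitutive member of the amyloid family, stood at 494 and 348 CPM in the controls and 144 and 184 CPM at 24 h (-1.36 ± 0.25, adjusted p = 0.00697), opposite to Saa1, Saa2 and Saa3. The call on Saa4 was lost without 24 h replicate 1 (adjusted p = 0.0574).

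Cytokine and interferon lists were higher. Of 32 cytokines and chemokines tested, 24 rose, 1 fell and 7 did not pass, with a median of 2.78. Cxcl2, a chemokine that draws neutrophils, had 1.65 and 1.20 CPM in the controls against 46.3 and 42.6 CPM at 24 h (4.95 ± 0.20, adjusted p = 0.000211). Cxcl10, a chemokine induced by interferon, was at 3.61 and 3.31 CPM in the controls and 109.8 and 144 CPM at 24 h (5.20 ± 0.19, adjusted p = 0.000172), and it is a member of both lists. Cxcl12, a chemokine of resting tissue, fell from 372 and 398 CPM in the controls to 208 and 185 CPM at 24 h (-0.97 ± 0.13, adjusted p = 0.00211). Recruited macrophage markers, given with the other cell types, were higher in the same libraries (393 and 311 against 77.5 and 64.2 RPM), and their part was not tested. Of 34 interferon response genes tested, 22 rose, 2 fell and 10 did not pass, with a median of 1.15. Interferon response genes that rose numbered 14 without 24 h replicate 1, 14 without control replicate 2 and 10 with all 12 libraries in the fit, and those that fell numbered 0 without 24 h replicate 1, 0 without 24 h replicate 2, 0 with library totals and 0 with all 12 libraries in the fit. Irf1, an interferon-induced transcription factor, stood at 44.4 and 43.4 CPM in the controls against 149 and 138 CPM at 24 h (1.71 ± 0.14, adjusted p = 0.000584). The GTPase gene Ifi47 had 26.5 and 25.0 CPM in the controls and 16.8 and 15.5 CPM at 24 h (-0.67 ± 0.16, adjusted p = 0.0148). The call on Ifi47 was lost without 24 h replicate 1 or 24 h replicate 2 (adjusted p = 0.0649 to 0.0761) and with library totals (adjusted p = 0.445).

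Lists of oxidative, metal and protein stress had medians nearer 0 than the cytokine list. NRF2 is the transcription factor that oxidants release to switch on antioxidant genes. Of 26 NRF2 antioxidant genes tested, 9 rose, 4 fell and 13 did not pass, with a median of 0.22. NRF2 antioxidant genes that rose numbered 14 with library totals, and those that fell numbered 2 without 24 h replicate 1, 2 without control replicate 1, 2 with library totals and 2 with all 12 libraries in the fit. G6pdx, which makes NADPH in the pentose phosphate pathway, was at 6.39 and 3.21 CPM in the controls against 42.8 and 48.8 CPM at 24 h (3.25 ± 0.31, adjusted p = 0.000741). Gsta1, a glutathione transferase, stood at 0.309 and 0.501 CPM in the controls and 10.6 and 23.2 CPM at 24 h (5.35 ± 0.51, adjusted p = 0.000755), and its family members may share reads. Gclm, a subunit of the enzyme that starts glutathione synthesis, had 413 and 369.9 CPM in the controls against 146 and 198 CPM at 24 h (-1.18 ± 0.18, adjusted p = 0.00334). Gsta1 had a log2 fold change of 4.66 without 24 h replicate 2. Of 12 metallothioneins and zinc transporters tested, 4 rose, 2 fell and 6 did not pass, with a median of 0.39. Metallothioneins and zinc transporters that rose numbered 2 without 24 h replicate 1, 9 with library totals and 2 with all 12 libraries in the fit, and those that fell numbered 1 without 24 h replicate 1, 1 without control replicate 1 and 0 with all 12 libraries in the fit. The zinc importer gene Slc39a10 changed by 1.96 ± 0.26 (adjusted p = 0.00214) and the manganese exporter gene Slc30a10 by -1.53 ± 0.21 (adjusted p = 0.00234).

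The promoter window of G6pdx, the NRF2 gene with the smallest p that had one, is shown for its single antioxidant response element (RefSeq, GRCm38.p6, chrX:74428831-74429130, minus strand, from 250 bases before to 50 after the start):

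G6pdx: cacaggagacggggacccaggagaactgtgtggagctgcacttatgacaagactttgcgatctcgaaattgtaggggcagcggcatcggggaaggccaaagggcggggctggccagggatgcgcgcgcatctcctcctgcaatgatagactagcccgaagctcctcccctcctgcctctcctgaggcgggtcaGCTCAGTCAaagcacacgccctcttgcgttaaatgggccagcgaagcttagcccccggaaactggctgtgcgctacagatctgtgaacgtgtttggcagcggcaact

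Capitals mark TGACNNNGC, the antioxidant response element, read here on the other strand. Of 7 NRF2 genes that rose and had a window, 3 held it, against 14.0% of all 27025 genes with a window, where a gene counts once if any of its windows holds the letters. Of all 23 tested NRF2 genes with a window, called or not, 8 held it. All 3 metallothionein and zinc genes that rose and had a window held TGCNCNC, the core of the metal response element, which 53.6% of all genes with a window held. All 9 tested members of that list with a window held it, whether they rose or not. Of 7 integrated stress response genes that rose and had a window, 1 held TGACGTCA and none TGATGNAAN, against 2.03% and 4.50% of all genes with one. Of all 21 tested members of that list with a window, 1 and 6 held them.

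The integrated stress response slows translation and switches on ATF4 target genes. Of 25 integrated stress response genes tested, 8 rose, 4 fell and 13 did not pass, with a median of 0.35. Integrated stress response genes that rose numbered 5 without 24 h replicate 1 and 13 with library totals, and those that fell numbered 2 without 24 h replicate 1, 1 without 24 h replicate 2, 0 with library totals and 0 with all 12 libraries in the fit. Ppp1r15a, which restores translation, was at 36.4 and 47.2 CPM in the controls and 118 and 114 CPM at 24 h (1.47 ± 0.16, adjusted p = 0.00112). Psat1, an enzyme of serine synthesis, stood at 1.13 and 0.501 CPM in the controls against 14.8 and 8.94 CPM at 24 h (3.85 ± 0.42, adjusted p = 0.00109). Cars, a transfer RNA synthetase, changed by -0.76 ± 0.12 (adjusted p = 0.00377). Psat1 had a log2 fold change of 4.53 without control replicate 1. The call on Cars was lost with library totals (adjusted p = 0.126). Of 22 endoplasmic reticulum chaperones tested, 3 rose, 2 fell and 17 did not pass, with a median of 0.36. Endoplasmic reticulum chaperones that rose numbered 0 without 24 h replicate 1, 5 without 24 h replicate 2, 1 without control replicate 1, 6 without control replicate 2 and 14 with library totals, and those that fell numbered 0 without 24 h replicate 2, 0 without control replicate 2, 0 with library totals and 0 with all 12 libraries in the fit. Sdf2l1, which assists folding, had 29.3 and 45.0 CPM in the controls and 148 and 72.8 CPM at 24 h (1.57 ± 0.35, adjusted p = 0.0128). Sec61b, a subunit of the translocation pore, changed by 0.82 ± 0.18 (adjusted p = 0.0119). Sel1l, part of the complex that disposes of misfolded proteins, changed by -0.50 ± 0.14 (adjusted p = 0.0270), and its sign turned with library totals (0.013, adjusted p = 0.945). The call on Sdf2l1 was lost without 24 h replicate 1 or control replicate 1 (adjusted p = 0.0544 to 0.0625). Sdf2l1 had a log2 fold change of 0.98 without 24 h replicate 1. The call on Sec61b was lost without 24 h replicate 1 or control replicate 2 (adjusted p = 0.0514 to 0.0787). The call on Sel1l was lost without 24 h replicate 2 or control replicate 2 (adjusted p = 0.0905 to 0.115). Of 18 cytosolic heat shock genes tested, 4 rose and 14 did not pass, with a median of 0.30. Cytosolic heat shock genes that rose numbered 2 without 24 h replicate 1, 2 without 24 h replicate 2, 8 without control replicate 2 and 12 with library totals. Hspa1a, the inducible HSP70, was at 3.20 and 8.12 CPM in the controls against 23.7 and 30.0 CPM at 24 h (2.24 ± 0.42, adjusted p = 0.00700). It has a near-identical copy, Hspa1b, so their reads may be split. Cryab, a small heat shock protein, stood at 1.75 and 1.30 CPM in the controls and 7.49 and 15.7 CPM at 24 h (2.92 ± 0.47, adjusted p = 0.00398). Hspa1a had a log2 fold change of 3.05 without control replicate 2. Cryab had a log2 fold change of 2.28 without 24 h replicate 2. Of 32 proteasome subunits tested, 2 rose, 2 fell and 28 did not pass, with a median of 0.029. Proteasome subunits that rose numbered 1 without 24 h replicate 1, 1 without 24 h replicate 2, 1 without control replicate 1, 1 without control replicate 2, 27 with library totals and 0 with all 12 libraries in the fit, and those that fell numbered 0 without 24 h replicate 1, 1 without control replicate 2, 0 with library totals and 0 with all 12 libraries in the fit. Psmd14 and Psmd11, 2 subunits of the regulatory cap, moved in opposite directions, by 0.58 ± 0.13 (adjusted p = 0.0124) and -0.61 ± 0.13 (adjusted p = 0.0117). The call on Psmd14 was lost without 24 h replicate 1 (adjusted p = 0.0815). The call on Psmd11 was lost without 24 h replicate 1 (adjusted p = 0.0762) and with library totals (adjusted p = 0.550).

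Genes of the p53 response and of cell death were higher more often than lower. Of 26 p53 response genes tested, 14 rose, 6 fell and 6 did not pass, with a median of 1.00. Genes of the p53 response that fell numbered 2 without 24 h replicate 1, 3 without 24 h replicate 2, 2 with library totals and 2 with all 12 libraries in the fit. Tnfrsf10b, a death receptor, had 0.516 and 0.401 CPM in the controls against 7.42 and 7.98 CPM at 24 h (4.04 ± 0.31, adjusted p = 0.000584). Phlda3, an inhibitor of Akt, had 3 counts over both controls and 6.69 and 6.47 CPM at 24 h, a ratio of 43.1 (95% interval 14.5 to 211, for counting error only; adjusted p = 0.000613). Dcxr, a sugar reductase, changed by -1.75 ± 0.23 (adjusted p = 0.00204). Of 33 cell death genes tested, 15 rose, 5 fell and 13 did not pass, with a median of 0.83. Cell death genes that fell numbered 1 without 24 h replicate 1, 2 without 24 h replicate 2, 2 with library totals and 2 with all 12 libraries in the fit. Tnfaip3, a brake on NF-kappa-B, was at 5.88 and 3.31 CPM in the controls and 152 and 124 CPM at 24 h (4.91 ± 0.30, adjusted p = 0.000350). Nlrp3, the sensor of an inflammasome of myeloid cells, stood at 0.206 and 0.401 CPM in the controls against 14.0 and 21.6 CPM at 24 h (5.82 ± 0.39, adjusted p = 0.000393). Bmf, which promotes apoptosis, had 15.7 and 11.5 CPM in the controls and 1.91 and 1.17 CPM at 24 h (-3.14 ± 0.31, adjusted p = 0.000875).

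Immediate early genes answer growth factors and stress within minutes. Of 26 immediate early genes tested, 14 rose, 2 fell and 10 did not pass, with a median of 0.92. Immediate early genes that rose numbered 22 with library totals, and those that fell numbered 0 without 24 h replicate 1, 1 without 24 h replicate 2, 0 without control replicate 1, 0 with library totals and 1 with all 12 libraries in the fit. Ier3 was at 3.40 and 3.71 CPM in the controls against 46.7 and 36.4 CPM at 24 h (3.54 ± 0.24, adjusted p = 0.000393) and Ier5 at 9.90 and 11.6 CPM in the controls and 55.7 and 61.0 CPM at 24 h (2.44 ± 0.19, adjusted p = 0.000589), whereas Ier2 stood at 267 and 208 CPM in the controls against 138 and 121 CPM at 24 h (-0.87 ± 0.20, adjusted p = 0.0142). The call on Ier2 was lost without 24 h replicate 1, 24 h replicate 2 or control replicate 1 (adjusted p = 0.0562 to 0.0768) and with library totals (adjusted p = 0.152).

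**Figure D3:**
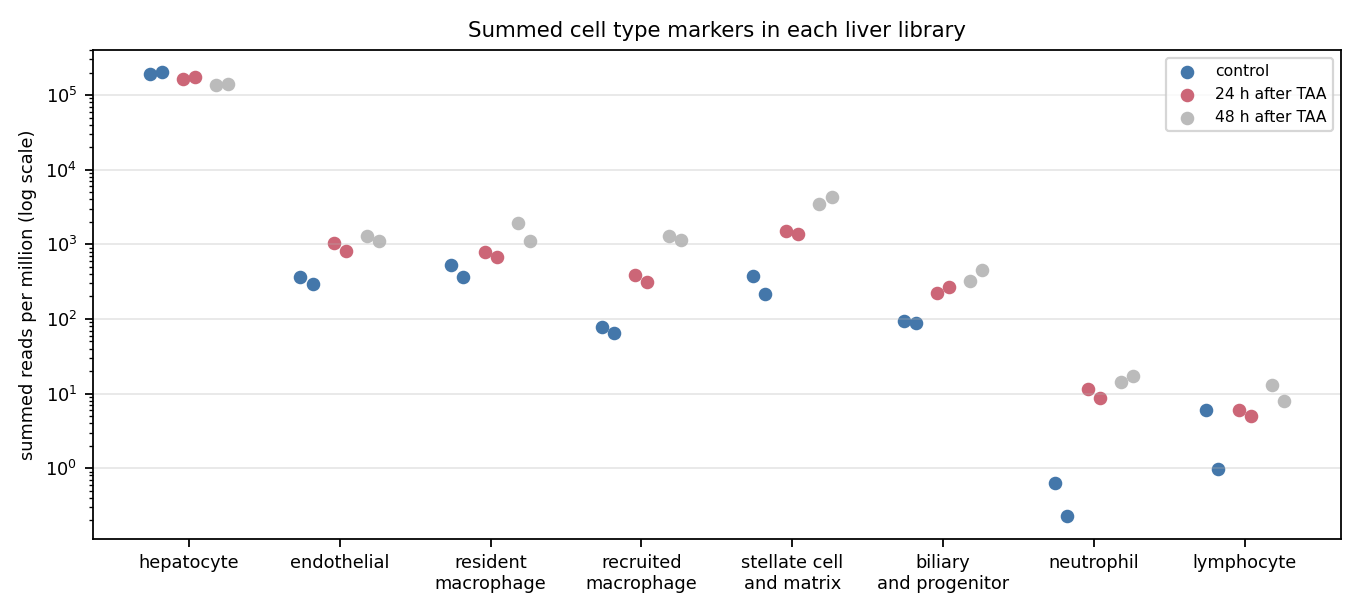
Each point is 1 liver library, with the summed RPM of a marker list on a log axis, for controls, 24 h and, for orientation, 48 h after TAA. Endothelial, macrophage, stellate, biliary and neutrophil sums lie above both controls in both 24 h libraries, hepatocyte sums lie below, and lymphocyte sums overlap. Most of each hepatocyte sum is Alb, and the lower hepatocyte sums rest on it. TMM factors, which would raise the controls relative to 24 h, are not used here, and the gap of the resident macrophage sums depends on them.

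Both groups held transcripts of other liver cells, and most of these marker lists were higher at 24 h. Hepatocyte markers summed to 194023 and 201707 RPM in the controls and 162174 and 172051 RPM at 24 h, and none of the 12 was at 0. Most of each sum was Alb, at 154335 and 151663 RPM in the controls and 104943 and 117892 RPM at 24 h. The lower sums at 24 h thus rest on Alb, which did not pass, and in RPM the remainder was not lower. Of 12 hepatocyte markers tested, 5 fell and 7 did not pass, with a median of -0.92. Hepatocyte markers that fell numbered 3 without 24 h replicate 1 and 1 with all 12 libraries in the fit. Library totals gave 2 members called higher. Asgr1, an asialoglycoprotein receptor, had 590.2 and 487 CPM in the controls and 259 and 278 CPM at 24 h (-1.0 ± 0.14, adjusted p = 0.00246). Endothelial markers summed to 365 and 290.0 RPM in the controls and 1055 and 821 RPM at 24 h. Of 24 endothelial markers tested, 16 rose and 8 did not pass, with a median of 0.97. Endothelial markers that rose numbered 9 without 24 h replicate 1 and 9 without control replicate 2. Stab1, a scavenger receptor of sinusoids, was at 25.7 and 20.8 CPM in the controls against 74.3 and 60.6 CPM at 24 h (1.54 ± 0.16, adjusted p = 0.000982) and Cdh5, the endothelial cadherin, at 17.7 and 11.3 CPM in the controls and 67.3 and 50.9 CPM at 24 h (2.02 ± 0.26, adjusted p = 0.00189). Stellate cell and matrix markers summed to 374 and 217 RPM in the controls and 1488 and 1367 RPM at 24 h. Of 24 stellate cell and matrix markers tested, 21 rose and 3 did not pass, with a median of 2.64. Vim, an intermediate filament of stromal cells, stood at 7.84 and 5.11 CPM in the controls against 109 and 93.1 CPM at 24 h (3.96 ± 0.23, adjusted p = 0.000312). Col4a1, a collagen of basement membranes, had 28.8 and 18.2 CPM in the controls and 221 and 184 CPM at 24 h (3.10 ± 0.25, adjusted p = 0.000602).

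Macrophage markers were higher too. Recruited macrophage markers summed to 77.5 and 64.2 RPM in the controls and 393 and 311 RPM at 24 h. Of 16 recruited macrophage markers tested, 13 rose and 3 did not pass, with a median of 3.40. Cd68, a lysosomal protein of macrophages, was at 5.05 and 4.01 CPM in the controls against 30.9 and 28.6 CPM at 24 h (2.71 ± 0.16, adjusted p = 0.000312) and Gpnmb, a glycoprotein of lipid-laden macrophages, at 0.103 and 0.301 CPM in the controls and 10.3 and 5.85 CPM at 24 h (5.24 ± 0.45, adjusted p = 0.000602). Resident macrophage markers summed to 527 and 365 RPM in the controls and 784 and 686 RPM at 24 h. RPM leave out the TMM factors, which would raise the controls relative to 24 h, so the gap between these resident sums depends on the scaling. Of 13 resident macrophage markers tested, 6 rose, 1 fell and 6 did not pass, with a median of 1.08. Resident macrophage markers that rose numbered 2 without 24 h replicate 1, 1 without 24 h replicate 2, 2 without control replicate 2, 10 with library totals and 1 with all 12 libraries in the fit. Marco, a scavenger receptor, stood at 5.26 and 1.30 CPM in the controls against 121 and 66.0 CPM at 24 h (4.83 ± 0.67, adjusted p = 0.00238). Slc40a1, the iron exporter that hepatocytes also express, changed by -0.92 ± 0.23 (adjusted p = 0.0192). Gpnmb had a log2 fold change of 6.15 without control replicate 2. Marco had a log2 fold change of 6.14 without control replicate 1 and 4.14 without control replicate 2. The call on Slc40a1 was lost without 24 h replicate 1, 24 h replicate 2 or control replicate 1 (adjusted p = 0.0573 to 0.119) and with library totals (adjusted p = 0.183).

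Markers of blood cells stayed low. Neutrophil markers summed to 0.625 and 0.225 RPM in the controls and 11.5 and 8.84 RPM at 24 h, and Ly6g, Camp and Stfa2l1 were at 0 in all 4 libraries. Of 15 neutrophil markers listed, only 5 were tested, of which 4 rose and 1 did not pass, with a median of 4.48. With so few counts in the controls, members could pass the filter on low counts only through the TAA libraries. That filter thus favours rises, and the count and median do not describe the whole list. Neutrophil markers that rose numbered 2 without 24 h replicate 1, 2 without control replicate 1 and 2 without control replicate 2. With the 2 members absent from the controls set at their bound, that median was 3.15. S100a9, a calcium-binding protein of neutrophils, had no count in the controls and 3.01 and 2.48 CPM at 24 h, which is at least 17.9-fold higher (against a floor of 3 counts over the controls). Csf3r, the receptor of the granulocyte growth factor, had 0.516 and 0.200 CPM in the controls and 2.13 and 1.79 CPM at 24 h (2.43 ± 0.46, adjusted p = 0.00742). Lymphocyte markers summed to 6.01 and 0.977 RPM in the controls and 5.99 and 5.04 RPM at 24 h, and Cd2 was at 0 in all 4. Of 18 lymphocyte markers listed, only 4 were tested, of which 1 rose and 3 did not pass, with a median of 0.20. The filter favours rises here too, as the member that rose could pass it only through the TAA libraries. Neither the count nor the median describes the whole lymphocyte list. Cd3e, a subunit of the T cell receptor complex, had no count in the controls and 20 counts over both 24 h libraries, at least 4.66-fold higher by the same floor (adjusted p = 0.0491), and the B cell gene Cd79b was at 0.619 and 0.200 CPM in the controls against 0.294 and 0.138 CPM at 24 h. Csf3r had a log2 fold change of 3.22 without control replicate 1. The call on Cd3e was lost without any 1 of the 4 libraries (adjusted p = 0.0637 to 0.135).

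Bile duct markers were higher. Biliary and progenitor markers summed to 92.9 and 89.5 RPM in the controls and 221 and 264 RPM at 24 h. Of 15 biliary and progenitor markers tested, 7 rose and 8 did not pass, with a median of 1.12. Biliary and progenitor markers that rose numbered 4 without control replicate 1 and 1 with all 12 libraries in the fit. Sox9, a factor of bile duct cells, stood at 6.60 and 10.4 CPM in the controls and 25.9 and 37.4 CPM at 24 h (1.89 ± 0.32, adjusted p = 0.00509) and the RNA-binding protein gene Bicc1 at 5.47 and 5.11 CPM in the controls against 15.5 and 14.0 CPM at 24 h (1.48 ± 0.21, adjusted p = 0.00269). Red blood cell markers summed to 19.3 and 12.4 RPM in the controls and 10.8 and 28.3 RPM at 24 h, so the groups overlapped. Of 7 listed, 3 were at 0 in all 4 libraries and only 2 were tested. Hbb-bs, a beta globin named after its values were seen, rose (adjusted p = 0.0297), and the other did not pass. The call was lost without 24 h replicate 2 or either control, and DESeq2 called neither gene higher. No pancreatic islet gene passed the filter on low counts. The part that other cells play in the changes of shared genes was not tested.

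Genes that act on the matrix and the cell skeleton stood among the highest lists. Of 22 matrix proteases and inhibitors tested, 17 rose and 5 did not pass, with a median of 2.80. Timp1, an inhibitor of metalloproteases, had 2 counts over both controls and 11.2 and 7.77 CPM at 24 h, a ratio of 93.0 (95% interval 25.5 to 772). Adamts4, an aggrecan protease, had 3 counts over both controls and 20.1 and 17.3 CPM at 24 h, a ratio of 123 (41.7 to 596). Both intervals cover counting error only, and the adjusted p was 0.000271 for each. Of 34 cytoskeleton, annexin and S100 genes tested, 26 rose and 8 did not pass, with a median of 1.87. Anxa2, a membrane-binding annexin, stood at 6.29 and 5.41 CPM in the controls and 182 and 195 CPM at 24 h (5.01 ± 0.14, adjusted p = 0.000119), and Flna, which links actin filaments, at 13 and 13.8 CPM in the controls against 109.7 and 84.6 CPM at 24 h (2.86 ± 0.16, adjusted p = 0.000312). Stellate and endothelial sums were higher in the same 2 libraries (1488 and 1367 RPM, and 1055 and 821 RPM), and their part in these lists was not tested.

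YAP and TAZ bind TEAD factors on DNA and switch on genes of growth and adhesion, and the kinases LATS1 and LATS2 keep them out of the nucleus. Of 21 YAP/TAZ target genes tested, 11 rose, 1 fell and 9 did not pass, with a median of 1.16. YAP/TAZ target genes that rose numbered 7 without 24 h replicate 1, 7 without 24 h replicate 2, 7 without control replicate 2 and 18 with library totals. Ctgf, a secreted matrix protein and classic target, was at 3.71 and 2.61 CPM in the controls and 33.8 and 22.8 CPM at 24 h (3.16 ± 0.26, adjusted p = 0.000602), and 23.2% of its exon length is shared with another gene. Ankrd1, an ankyrin repeat protein, stood at 0.722 and 0.702 CPM in the controls against 4.70 and 5.02 CPM at 24 h (2.76 ± 0.32, adjusted p = 0.00129). Cyr61, a relative of Ctgf, had 80.8 and 81.3 CPM in the controls and 133 and 152 CPM at 24 h (0.81 ± 0.26, adjusted p = 0.0461). Myof, a protein of membrane repair, was at 1.55 and 1.80 CPM in the controls against 16.6 and 12.5 CPM at 24 h (3.11 ± 0.20, adjusted p = 0.000388). Nt5e, an ectonucleotidase, stood at 247 and 225 CPM in the controls and 71.3 and 86.9 CPM at 24 h (-1.58 ± 0.18, adjusted p = 0.00116). Amotl2 and Lats2, which are both targets and parts of the pathway, had log2 fold changes of -0.16 and 0.15 and did not pass. The call on Cyr61 was lost without any 1 of the 4 libraries (adjusted p = 0.116 to 0.170). The GRCm38.p6 promoter window of Ankrd1 (RefSeq, chr19:36119795-36120094, minus strand, from 250 bases before to 50 after the start) is shown because it holds the TEAD letters more than once:

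Ankrd1: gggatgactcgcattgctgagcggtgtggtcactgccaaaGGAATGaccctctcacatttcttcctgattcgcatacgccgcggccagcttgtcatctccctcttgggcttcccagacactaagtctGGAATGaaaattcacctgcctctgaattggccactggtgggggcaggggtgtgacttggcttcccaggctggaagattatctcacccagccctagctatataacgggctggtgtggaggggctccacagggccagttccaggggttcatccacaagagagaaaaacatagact

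Capitals mark GGAATG, the core that TEAD factors bind, searched on both strands. Of 7 target genes that rose and had a window in the RefSeq table, 4 held these letters, against 16.6% of all genes with a window. Of all 13 tested target genes with a window, called or not, 6 held them. A match is a description of letters, not of binding. Among the pathway's own components, Yap1 had 87.4 and 96.8 CPM in the controls against 105 and 95.8 CPM at 24 h, and did not pass (0.12 ± 0.12, adjusted p = 0.428), but it was higher with library totals (0.64, adjusted p = 0.00631). Wwtr1, the gene of TAZ, was at 17.3 and 16.7 CPM in the controls and 31.9 and 34.4 CPM at 24 h (0.96 ± 0.16, adjusted p = 0.00413). Of 24 Hippo pathway components tested, 7 rose, 3 fell and 14 did not pass, with a median of 0.14. Hippo pathway components that rose numbered 4 without 24 h replicate 1, 15 with library totals and 4 with all 12 libraries in the fit, and those that fell numbered 0 without 24 h replicate 1, 0 with library totals and 1 with all 12 libraries in the fit. Tead1, a DNA-binding partner, stood at 21.2 and 21.5 CPM in the controls against 40.5 and 41.6 CPM at 24 h (0.94 ± 0.15, adjusted p = 0.00348) and Frmd6, an upstream scaffold, at 5.16 and 6.01 CPM in the controls and 11.6 and 12.2 CPM at 24 h (1.09 ± 0.18, adjusted p = 0.00408). Vgll4, which competes with YAP for TEAD, had 33.0 and 42.5 CPM in the controls against 18.4 and 18.6 CPM at 24 h (-1.03 ± 0.19, adjusted p = 0.00676). The kinase gene Lats1 had a log2 fold change of -0.060 and did not pass (adjusted p = 0.682). The call on Vgll4 was lost without 24 h replicate 1 (adjusted p = 0.0513) and with library totals (adjusted p = 0.0637). Endothelial and stellate marker sums were also higher in the 24 h libraries, and their part in the YAP/TAZ target list was not tested.

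Growth factors and receptors moved both ways. Of 36 growth factors, activins and receptors tested, 18 rose, 11 fell and 7 did not pass, with a median of 0.69. Growth factors, activins and receptors that fell numbered 7 with all 12 libraries in the fit. Tnfrsf12a, the receptor of the cytokine TWEAK, was at 5.88 and 6.52 CPM in the controls and 91.4 and 95.9 CPM at 24 h (3.92 ± 0.21, adjusted p = 0.000312). Tgfbr2, a receptor of TGF-beta, stood at 9.28 and 10.3 CPM in the controls against 50.3 and 46.3 CPM at 24 h (2.30 ± 0.15, adjusted p = 0.000369). Prlr, the prolactin receptor, had 662 and 524 CPM in the controls and 125 and 169.6 CPM at 24 h (-2.01 ± 0.20, adjusted p = 0.000875).

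Cell cycle lists were higher, from the cyclins of G1 to the genes of mitosis. Of 25 G1 cyclins, kinases and inhibitors tested, 11 rose, 2 fell and 12 did not pass, with a median of 0.70. G1 cyclins, kinases and inhibitors that rose numbered 17 with library totals, and those that fell numbered 1 with library totals and 1 with all 12 libraries in the fit. E2f2, an activator of S phase genes, was at 3.09 and 3.01 CPM in the controls against 11 and 11.7 CPM at 24 h (1.89 ± 0.21, adjusted p = 0.00119). Rbl2, a pocket protein of resting cells, stood at 49.7 and 56.3 CPM in the controls and 12.1 and 13.7 CPM at 24 h (-2.04 ± 0.16, adjusted p = 0.000560). Of 36 DNA replication genes tested, 27 rose, 3 fell and 6 did not pass, with a median of 1.45. DNA replication genes that rose numbered 16 without 24 h replicate 1, and those that fell numbered 1 without 24 h replicate 1, 1 without 24 h replicate 2 and 0 with all 12 libraries in the fit. Mcm6, a subunit of the replicative helicase, had 6.50 and 4.31 CPM in the controls against 63.9 and 37.0 CPM at 24 h (3.22 ± 0.32, adjusted p = 0.000851). Uhrf1, which guides maintenance methylation of new DNA, was at 0.309 and 0.200 CPM in the controls and 29.9 and 10.8 CPM at 24 h (6.27 ± 0.64, adjusted p = 0.000875). Mcm10, which activates that helicase, stood at 44.0 and 31.3 CPM in the controls against 14.8 and 13.3 CPM at 24 h (-1.42 ± 0.22, adjusted p = 0.00373), opposite to Mcm6. Uhrf1 had a log2 fold change of 5.36 without 24 h replicate 1. Of 34 mitosis genes tested, 20 rose and 14 did not pass, with a median of 2.02. Mitosis genes that rose numbered 2 without 24 h replicate 1, 13 without 24 h replicate 2, 12 without control replicate 1, 4 without control replicate 2 and 11 with all 12 libraries in the fit. Cdc25b, a phosphatase that starts mitosis, stood at 0.516 and 0.301 CPM in the controls and 1.76 and 2.13 CPM at 24 h (2.23 ± 0.39, adjusted p = 0.00568) and Foxm1, a factor that switches on mitotic genes, at 0.413 and 0.501 CPM in the controls against 2.42 and 1.72 CPM at 24 h (2.15 ± 0.41, adjusted p = 0.00800). The call on Foxm1 was lost without control replicate 1 (adjusted p = 0.0639). The levels of these 2 mitosis genes at 24 h were a few CPM at most.

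**Figure D4:**
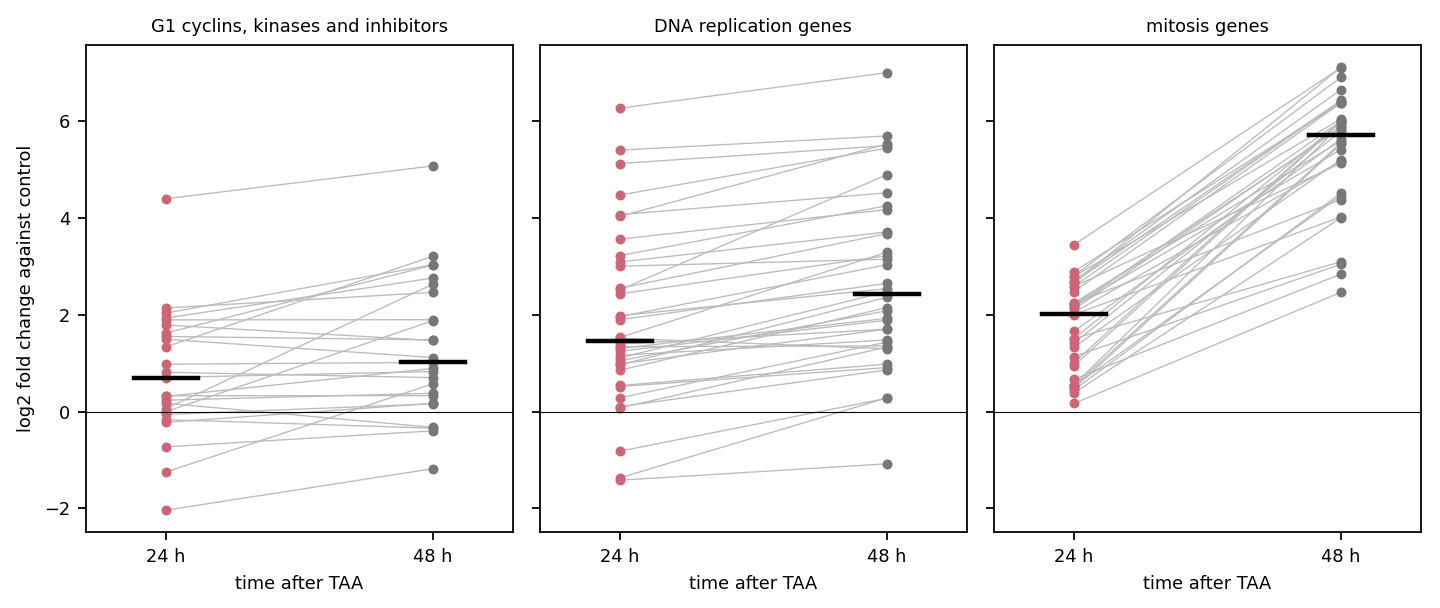
Each point is 1 tested member of a cell cycle list, with its log2 fold change against control at 24 h and at 48 h joined by a line, and black bars give the medians. Both times share the same 2 controls. Mitosis medians lie at 2.02 and 5.71, and DNA replication medians at 1.45 and 2.42.

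At 48 h, against the same controls, the medians of the 3 lists were 1.02 for G1 genes, 2.42 for DNA replication genes and 5.71 for mitosis genes. At 48 h, 49.0% of all genes tested differed from the controls, 25.0% upward and 24.0% downward. Between 48 h and 24 h, 7.24% of genes differed, 4.88% higher at 48 h and 2.36% lower. In that comparison Foxm1 was higher at 48 h than at 24 h by 3.84 and Cdc25b by 2.15, and both differences passed the test. The promoter window of Mcm6 (RefSeq, GRCm38.p6, chr1:128359656-128359955, minus strand, of the same length) is shown because it holds a full E2F site more than once:

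Mcm6: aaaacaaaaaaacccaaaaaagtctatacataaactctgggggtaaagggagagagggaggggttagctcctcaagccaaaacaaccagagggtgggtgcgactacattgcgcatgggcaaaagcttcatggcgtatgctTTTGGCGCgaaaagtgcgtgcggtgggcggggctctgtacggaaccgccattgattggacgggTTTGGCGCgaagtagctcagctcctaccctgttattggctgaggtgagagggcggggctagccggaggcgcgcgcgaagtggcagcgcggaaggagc

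Capitals mark TTTGGCGC, a site of the E2F factors that switch on S phase genes, searched on both strands. Of 23 DNA replication genes that rose and had a window, 5 held TTTGGCGC and 6 held TTTCCCGC, against 0.585% and 1.24% of all genes with a window. Of all 28 tested members with a window, called or not, the same 5 and 6 held them. Of 16 mitosis genes that rose and had a window, 10 held TTTGAA, the core of the cell cycle homology region, and 12 held CCAAT, against 20.2% and 41.1% of all genes with one. Of all 28 tested mitosis genes with a window, called or not, 19 and 22 held them. The mitosis letters were thus held in similar shares by the members that rose and by all tested members. Both E2F sites were held only by replication genes that rose, where 23 of the 28 with a window had risen. No difference between these shares was tested. The 12 immediate early genes that rose and had a window lacked TGANTCA, the AP-1 site, which 8.97% of all genes with a window held, and no match says only that these letters are not in that stretch.

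Genes that build ribosomes were higher. Of 28 ribosome biogenesis genes tested, 22 rose and 6 did not pass, with a median of 0.78. Ribosome biogenesis genes that rose numbered 10 without 24 h replicate 1 and 14 without control replicate 1. Ncl, the nucleolar protein nucleolin, was at 185 and 191 CPM in the controls and 453 and 362 CPM at 24 h (1.12 ± 0.14, adjusted p = 0.00187). Mybbp1a, a nucleolar protein, stood at 66.1 and 72.8 CPM in the controls against 204 and 144 CPM at 24 h (1.33 ± 0.18, adjusted p = 0.00228).

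On the TMM scale, more iron and clock genes fell than rose. The shares that rose, 14.3% and 10.5%, were under the 21.4% of all genes tested. The shares that fell, 38.1% and 42.1%, were above the 20.4% of all genes tested. Of 21 iron handling genes tested, 3 rose, 8 fell and 10 did not pass, with a median of 0.097. Iron handling genes that rose numbered 1 without control replicate 1 and 10 with library totals, and those that fell numbered 5 without 24 h replicate 1, 5 without control replicate 1, 5 with library totals and 5 with all 12 libraries in the fit. Hmox1, which degrades haem, had 19.9 and 15.4 CPM in the controls and 55.4 and 64.0 CPM at 24 h (1.76 ± 0.18, adjusted p = 0.000875). Tmprss6, a protease that lowers hepcidin, was at 955 and 832 CPM in the controls against 249 and 324 CPM at 24 h (-1.64 ± 0.17, adjusted p = 0.000973). Of 19 circadian clock genes tested, 2 rose, 8 fell and 9 did not pass, with a median of -0.13. Circadian clock genes that rose numbered 1 without 24 h replicate 1, 8 with library totals and 0 with all 12 libraries in the fit, and those that fell numbered 3 without 24 h replicate 1, 4 with library totals and 2 with all 12 libraries in the fit. Nfil3, a repressor, stood at 62.5 and 67.3 CPM in the controls and 20.2 and 31.0 CPM at 24 h (-1.34 ± 0.21, adjusted p = 0.00339). Ciart, another repressor, had 0.516 and 0.401 CPM in the controls against 1.98 and 3.23 CPM at 24 h (2.49 ± 0.51, adjusted p = 0.0101), and the sources used here do not give the hour of collection. The call on Ciart was lost without 24 h replicate 2 or control replicate 2 (adjusted p = 0.0552 to 0.0554).

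Female-biased genes fell in every member tested, and all 4 libraries held Xist and almost no Y-linked transcripts. Growth hormone's pattern of release is known to set sex-biased genes in the liver. All 14 female-biased liver genes tested fell, with a median of -3.95. Female-biased liver genes that fell numbered 10 to 13 with 1 of the 4 libraries left out and 4 with all 12 libraries in the fit. Acot3, an acyl-CoA thioesterase, was at 82.4 and 71.7 CPM in the controls and 3.97 and 5.37 CPM at 24 h (-4.04 ± 0.28, adjusted p = 0.000425). The P450 genes Cyp3a16, Cyp3a41b and Cyp3a44 changed by -6.38 ± 1.22 (adjusted p = 0.00767), -5.20 ± 0.95 (adjusted p = 0.00669) and -5.50 ± 1.46 (adjusted p = 0.0240). Cyp3a16 had a log2 fold change of -5.48 without 24 h replicate 1 and -9.45 without 24 h replicate 2. Cyp3a41b had a log2 fold change of -4.32 without 24 h replicate 1 and -8.10 without 24 h replicate 2. The call on Cyp3a44 was lost without 24 h replicate 1, 24 h replicate 2 or control replicate 1 (adjusted p = 0.0646 to 0.145) and in a robust fit (adjusted p = 0.106). Cyp3a44 had a log2 fold change of -6.45 without 24 h replicate 2 and -4.65 without control replicate 1. Summed female-biased genes took 8556 and 3497 RPM in the controls and 531 and 737 RPM at 24 h, so the controls differed but did not overlap with 24 h. Of 11 male-biased liver genes tested, 1 rose, 7 fell and 3 did not pass, with a median of -2.38. Male-biased liver genes that fell numbered 4 without 24 h replicate 1 and 1 with all 12 libraries in the fit. Cyp7b1, an oxysterol hydroxylase, stood at 54.3 and 38.1 CPM in the controls against 6.24 and 5.85 CPM at 24 h (-2.93 ± 0.32, adjusted p = 0.00114). Elovl3, a fatty acid elongase, had 43 counts over the controls and none at 24 h, which is at least 20.5-fold lower by a floor of 3 counts over the 24 h libraries. Serpina1e, an antitrypsin of a family with near-identical members, had 134 and 152 CPM in the controls and 225 and 209.7 CPM at 24 h (0.60 ± 0.12, adjusted p = 0.00867). The call on Serpina1e was lost without 24 h replicate 1 (adjusted p = 0.0545).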

How the data were processed

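Polyadenylated RNA of 6 liver libraries, 2 each for controls, 24 h and 48 h after TAA, was analysed within a series of 12. Sample titles gave the groups and the replicate numbers. Raw counts per gene were deposited by the authors for 41128 genes, and per the labels' protocols the kit was stranded. The submitters' processing notes name STAR and DESeq2, with the builds mm10 and GRCm38. Neither the annotation nor the strand setting of the counting is stated in the sources used here, and overlapping, antisense and near-identical genes may share reads. Of the gene IDs, 40254 (97.9%) were found in GENCODE M21 on GRCm38, and 57 symbols belong to more than 1 gene. A deposited table of RPM values was not used. All RPM here were computed from the counts.

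EdgeR 4.0.16 (R 4.3.3) was run on the counts with TMM factors, after filterByExpr with a minimum count of 10 and a total of 15, and with a prior count of 0.125. P-values of its two-sided quasi-likelihood F test were adjusted by Benjamini and Hochberg, with a threshold of 0.05. The 6 liver libraries formed 1 fit, and 24 h minus control was the contrast. Acinar genes (59 listed, 41 tested) stayed in the fit and out of every count. Replicates differed by more than sampling noise, at a chi-square per degree of freedom of 20.6 at 24 h and 39.5 in the controls. As alternatives, DESeq2 1.42.0 was run, limma 3.58.1 with a pseudocount of 0.5 or 0.1 RPM on the log2 scale, and edgeR with RLE factors, upper-quartile factors or library totals, other filters and thresholds, legacy and robust fits, 4 or all 12 libraries, the replicate number as a block, and each library left out. The removal of acinar genes before a TMM fit was added after seeing the data. The fit was tested on simulated data in which a small set of genes changed, as many upward as downward. That setting differs from these data and cannot bear on the choice of scaling.

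The members, gene lists and tests were chosen with earlier results of these data known. Lists are described by counts and medians, with no test. Named genes are Cyp2e1, Yap1, Wwtr1, Ctgf, Cyr61 and Ankrd1, and those 10 called genes in each direction with the largest log2 change, no overlap between groups and a higher group that averages 10 CPM or more, with at least 4 counts over the lower group. The 5 largest rises and falls in mean CPM were named too, with predicted genes, Rik names, pseudogenes and clones left out. From each list come the 2 members with the smallest p and, where members were called against the list's direction, the 1 with the smallest p. A few genes that meet the rule are not reported here. Fmo2, Fmo5, Glul, Oat, Axin2, Cyp2a5, Lect2 and Hbb-bs were named after their values were seen. Promoter windows of RefSeq on GRCm38.p6, 250 bases before to 50 after a start, were searched for motifs on both strands.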

Additional observations from a re-analysis of the deposited data

Results flagged for a closer look

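The effect of TAA on a named gene was compared between 48 h and 24 h within the same fit, where 656 genes (4.88%) were higher and 318 (2.36%) lower at 48 h at an adjusted p under 0.05 (edgeR's quasi-likelihood test). Of the named genes reported, 42 differed between the times, and they are given here as log2 values of 48 h minus 24 h. The controls drop out of this difference. Summed acinar transcripts were at 5132 and 20169 RPM in the 48 h libraries against 194 and 181 RPM at 24 h, and their part in these differences was not tested.

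Among genes that had risen at 24 h, the acute phase genes Saa1, Saa2 and Saa3 differed by -2.86, -3.20 and -2.85, so all 3 were lower at 48 h than at 24 h. Lower at 48 h were also Sult1e1 by -2.69, Hspa1a by -2.66, Acmsd by -2.55, Sele by -2.22 and Cxcl10 by -2.09, and Sox9 by -1.40, Serpina1e by -1.25, C4bp by -1.21, Sec61b by -0.98, Irf1 by -0.93 and Tnfrsf12a by -0.845. Among genes that had fallen at 24 h, a lower level at 48 h was found for Cyp2c38 by -1.72, Rgn by -1.64, Tm7sf2 by -1.28, Pigr by -1.25, Cyp2e1 by -1.21, Acacb by -1.10, Otc by -0.84, Ebp by -0.57 and Baat by -0.52.

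Higher at 48 h than at 24 h were mitosis, macrophage and stromal genes that had already risen. Foxm1 and Cdc25b differed by 3.84 and 2.15. The macrophage genes Gpnmb and Cd68 differed by 4.11 and 1.36, and Hk3, a hexokinase of myeloid cells, by 1.61. The YAP/TAZ target genes Myof, Ctgf and Ankrd1 were higher as well, by 2.50, 1.34 and 1.17. Cyr61, another target that had risen at 24 h, did not pass in this comparison (-0.31, adjusted p = 0.491). Of the cytoskeleton and stromal genes, Lgals1 by 1.98, Vim by 1.47, Anxa2 by 0.76 and Flna by 0.73 differed in that direction. Further genes that had risen and were higher still at 48 h were Pkm by 1.22 and Hmox1 by 1.01. Of genes that had fallen at 24 h, 5 were nearer to the controls at 48 h, Afmid by 1.41, Acot3 by 1.17, Rbl2 by 0.86, Asl by 0.80 and Elovl5 by 0.76.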

How the results depend on the processing

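In 19 alternatives to the fit on TMM factors, the 2876 genes called higher and 2739 called lower moved most with the scaling. Library totals without a factor gave 6126 higher and 1199 lower (83.6% of calls higher, against 51.2%), and 6097 and 1236 with acinar genes taken out of the totals. Limma gave 6225 and 1199 on log2(RPM + 0.1), and 6109 and 1214 on log2(RPM + 0.5). These settings shifted the median log2 value of all tested genes upward by 0.51, 0.50, 0.51 and 0.47. Upper-quartile factors shifted it by 0.15, with 3600 higher and 2105 lower (63.1% higher). With all 12 libraries in the fit it shifted by 0.13, and 2030 were higher and 1202 lower (62.8% higher). An adjusted p under 0.01 left 1381 higher and 1477 lower, and a 2-fold change left 2001 and 1344. Leaving out 1 library at a time gave 1442 to 2206 higher and 1378 to 2378 lower, with the lowest counts without replicate 1 of the 24 h group. The other alternatives gave 2504 to 2913 higher and 2282 to 2797 lower.

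The replicate number as a block gave 2776 higher and 2564 lower, and 2 named genes, Gc (adjusted p = 0.060) and Hpx (adjusted p = 0.066; edgeR's quasi-likelihood test), lost their call. Same-numbered libraries deviated together only weakly, with correlations across genes of 0.023, 0.027 and 0.026. With 2 libraries a group, these values cannot tell whether such libraries were handled together, which the labels do not say.

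Of the 142 genes of the naming rule that were called, 94 stayed called in every alternative that tested them. Calls were lost for 38 with all 12 libraries, and for 22, 10, 16 and 12 without replicates 1 and 2 of the 24 h group and 1 and 2 of the controls. Sel1l changed sign under the 4 settings with library totals or limma, to 0.0061, 0.013, 0.0057 and 0.0057 on the log2 scale. Counts per gene list moved by over 1.5 times in 48 cases with all 12 libraries and 46 with library totals. The cause of these moves was not tested. With 2 libraries a group, the spread behind each p is estimated over all 6 libraries. Genes of few counts were not tested.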
